A study of Mus musculus with 9 samples.

Results

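The gasdermin genes Gsdmc, Gsdmc2, Gsdmc3, Gsdmc4 and Gsdmd were followed across 9 RNA-seq libraries of small-intestinal crypts (male C57BL/6 mice, 8 to 12 weeks old). They were taken by symbol, and all 5 were found among the 55341 genes in the files. The study deleted Pcgf6, a component of the PRC1.6 form of Polycomb repressive complex 1, with either of 2 inducible Cre drivers. The groups were AhCre Pcgf6 KO (n = 2) and AhCre WT (n = 2), given beta-naphthoflavone (BNF), and Villin CreERT2 Pcgf6 KO (n = 2) and Villin CreERT2 WT (n = 3), given tamoxifen, so the WT mice received the same inducer as their KO partners. The KO is conditional. AhCre is driven by a promoter that responds to aryl hydrocarbon receptor ligands and is also active outside the gut, whereas the Villin promoter is restricted largely to the intestinal epithelium. The interval since induction is uncertain, since titles say 15 days while another description field and the design text say 7 days. BNF is also named in a description field of the tamoxifen-treated samples. The deleted exons and the Cre status of the WT mice were not given in the sources used here. Nothing in the labels says whether libraries of a group came from separate mice, so the p-values measure only the spread between these libraries, which may be technical.

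Gasdermins are held inactive by their own C-terminal part until a protease cuts the linker in the middle of the protein. The freed N-terminal part inserts into membranes and forms pores, through which cytokines leave the cell and which can end in lytic death (pyroptosis). Gasdermin D, the product of Gsdmd, is cut downstream of inflammasomes by the inflammatory caspases and is expressed in the gut epithelium. The Gsdmc genes are a tandem array in the mouse, and in the mouse intestine Gsdmc2, Gsdmc3 and Gsdmc4 are known to be induced in epithelial cells by the type 2 cytokines IL-4 and IL-13, as in worm infection.

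The 4 Gsdmc copies lie side by side on the minus strand of chromosome 15, over 136.3 kb of the GRCm38 assembly. In the GENCODE M21 annotation Gsdmc spans chr15:63775968-63808759, Gsdmc2 chr15:63824346-63845177, Gsdmc3 chr15:63857724-63878558 and Gsdmc4 chr15:63891264-63912297. Gsdmd lies 11.95 Mb further along the same chromosome, on the plus strand, at chr15:75862327-75867408. All 5 are protein-coding, and no exon of theirs overlaps an exon of another gene. The coding sequences of Gsdmc2 and Gsdmc3 were 97.1% identical, with 42 mismatches in 1443 aligned bases. Gsdmc4 was 93.8% identical to each of these, and Gsdmc was 87.0% to 87.5% identical to the other copies. Gsdmd was 56.1% to 57.0% identical to the 4 copies. A stretch of 150 bases near the start of the coding sequence is shown because it gives both sides of this pattern; capitals mark the 31 positions that vary among the 4 copies, of which 1 varies among Gsdmc2, Gsdmc3 and Gsdmc4. It runs from base 133 to 282 of the coding sequence in Gsdmc and from base 130 to 279 in the others, counted from the first base of the start codon, in GENCODE M21 transcripts.
Gsdmc: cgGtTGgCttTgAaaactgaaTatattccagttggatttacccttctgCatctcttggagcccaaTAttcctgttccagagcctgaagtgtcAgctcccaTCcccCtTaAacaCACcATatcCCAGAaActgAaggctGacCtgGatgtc
Gsdmc2: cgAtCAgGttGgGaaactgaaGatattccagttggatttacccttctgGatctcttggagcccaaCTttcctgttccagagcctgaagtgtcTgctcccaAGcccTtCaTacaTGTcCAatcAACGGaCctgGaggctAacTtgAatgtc
Gsdmc3: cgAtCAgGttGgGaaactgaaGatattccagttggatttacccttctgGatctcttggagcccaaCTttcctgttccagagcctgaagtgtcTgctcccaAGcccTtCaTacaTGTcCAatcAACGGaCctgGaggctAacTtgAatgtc
Gsdmc4: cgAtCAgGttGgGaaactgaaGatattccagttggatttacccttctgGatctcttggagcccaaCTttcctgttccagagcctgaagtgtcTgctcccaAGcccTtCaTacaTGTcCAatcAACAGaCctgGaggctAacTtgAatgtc
Over this stretch Gsdmc2 and Gsdmc3 have the same letters, so a read from within it could not be assigned to either of them, while Gsdmc stands apart from Gsdmc2, Gsdmc3 and Gsdmc4. Over whole transcripts, 51.3% of the stretches of 50 bases in Gsdmc2 also occur in another gene, 46.0% in Gsdmc3, 39.0% in Gsdmc4 and 16.1% in Gsdmc, in each case in another of the copies. With stretches of 100 bases these shares were 28.6%, 28.4%, 20.2% and 7.03%. None of the stretches of Gsdmd occurs in another gene. The read length and the handling of reads that match several genes were not given in the sources used here, so values of single copies are uncertain and the sum over the 4 copies is given first.

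The RefSeq promoter table for GRCm38.p6 held 1 of the 5 genes, Gsdmc3. Its 250 bases before the start, chr15:63878559-63878808 on the minus strand, are shown because Gsdmc3 is one of the copies that moved together; the capitals mark TATAA, 27 bases before the start.
Gsdmc3 promoter: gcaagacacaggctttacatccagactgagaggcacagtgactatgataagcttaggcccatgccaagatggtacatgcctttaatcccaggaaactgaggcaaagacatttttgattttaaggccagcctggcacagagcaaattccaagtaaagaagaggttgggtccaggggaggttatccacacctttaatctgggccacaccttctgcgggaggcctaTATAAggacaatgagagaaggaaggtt
TATAA, a motif chosen after this sequence had been seen, occurs on either strand in 22.8% of the 32851 promoters of the table. Searched on both strands over windows of the same 250 bases, the STAT6 motif (in 5.85% of promoters), TTCNNNGAA (the motif of other STAT factors; 7.02%), CACGTG (an E-box; 6.02%) and GGCGGGAA (an E2F-type site; 1.86%) were not found in the letters of the Gsdmc3 window.

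Total counts per library were 9263993 to 12377921 in AhCre and 6455098 to 8339149 in Villin. CPM values below are counts scaled by library total and TMM factor, and 3 counts in 1 library amount to 0.194 to 0.615 CPM. Pcgf6 itself was at 89 and 68 counts in the AhCre KO libraries, against 219 and 136 in AhCre WT, and at 15 and 16 counts in the Villin KO libraries, against 60, 99 and 49 in Villin WT. Both KO libraries were below every WT library of their driver. The log2 fold change was -1.99 in Villin (SE 0.42, adjusted p = 0.0220) and -0.89 in AhCre (adjusted p = 1 in the fit to all libraries). For the epithelial label, 15 absorptive enterocyte genes all had counts in every library, summing to 10532 to 70885 CPM, against at most 215 CPM for 10 stromal genes, 687 CPM for 10 lymphocyte and plasma cell genes and 847 CPM for 11 myeloid and mast cell genes. Gzma, a granzyme gene, was listed with the proteases and not with the lymphocyte genes. It alone was at 34.8 to 1607 CPM in Villin WT and 157 to 1256 CPM in Villin KO, and at most 169 CPM in AhCre. Replicates differed by more than sampling noise in every group, and more so in Villin (chi-square over its degrees of freedom at least 50.2) than in AhCre (at most 12.8).

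Transcripts of the Gsdmc copies rose with loss of Pcgf6, by 7.43-fold on average over both drivers (log2 fold change 2.89, SE 0.41, 95% interval 2.01 to 3.78, adjusted p = 0.00677 by edgeR's quasi-likelihood test). Summed over the 4 copies, the level was 843 and 849 CPM in AhCre KO crypts, against 122 and 106 CPM in AhCre WT crypts. It was 818 and 446 CPM in Villin KO crypts, against 38.5, 52.7 and 165 CPM in Villin WT crypts. Of all genes, 1.14% were called in this comparison, in which the 4 copies entered as 1 sum. Every KO library lay above every WT library of its driver, as in 3.42% of all 16250 genes tested. Behind these values stood 10426 and 9795 reads in AhCre KO, against 1884 and 1420 in AhCre WT, and 3995 and 2891 in Villin KO, against 214, 411 and 855 in Villin WT. In bulk crypt RNA, more cells that express the copies and more RNA per cell cannot be told apart.

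The size of the effect was nearly the same in the 2 drivers. In Villin the log2 fold change of the sum was 2.89 (SE 0.53, adjusted p = 0.0137), in a comparison in which 6.19% of all genes were called. In AhCre it was 2.90 (SE 0.61, unadjusted p = 0.000429), which did not pass after adjustment over all genes (adjusted p = 0.317) in the fit that shares 1 spread among all groups; 0.00615% of genes were called there. The AhCre value did pass with DESeq2 (adjusted p = 0.000375), with limma-voom and sample weights (3.36e-06), in a fit of the AhCre libraries alone (4.49e-09) and without the filter on low counts (1.18e-08). The difference of the effects, AhCre minus Villin, was 0.0033 on the log2 scale, with a 95% interval from -1.69 to 1.7 (adjusted p = 0.999; 0.0739% of genes were called), an interval wide enough for effects several-fold apart. The WT groups, AhCre minus Villin, differed by 0.42 (log2, SE 0.52, adjusted p = 0.619), a value that depended on single Villin WT libraries: leaving out library 1 of Villin WT gave 0.066, library 2 gave 0.22 and library 3 gave 1.31 (adjusted p = 0.0645). The averaged effect no longer passed without AhCre WT 1 (adjusted p = 0.0652), Villin WT 1 (0.0535) or AhCre WT 2 (0.0699). The Villin effect no longer passed without Villin KO 1 (0.0759) or Villin WT 1 (0.0513). In these fits with 1 library left out the log2 fold change stayed between 2.66 and 3.34 on average and between 2.41 (without Villin KO 1) and 3.79 (without Villin WT 3) in Villin.

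**Figure D1:**
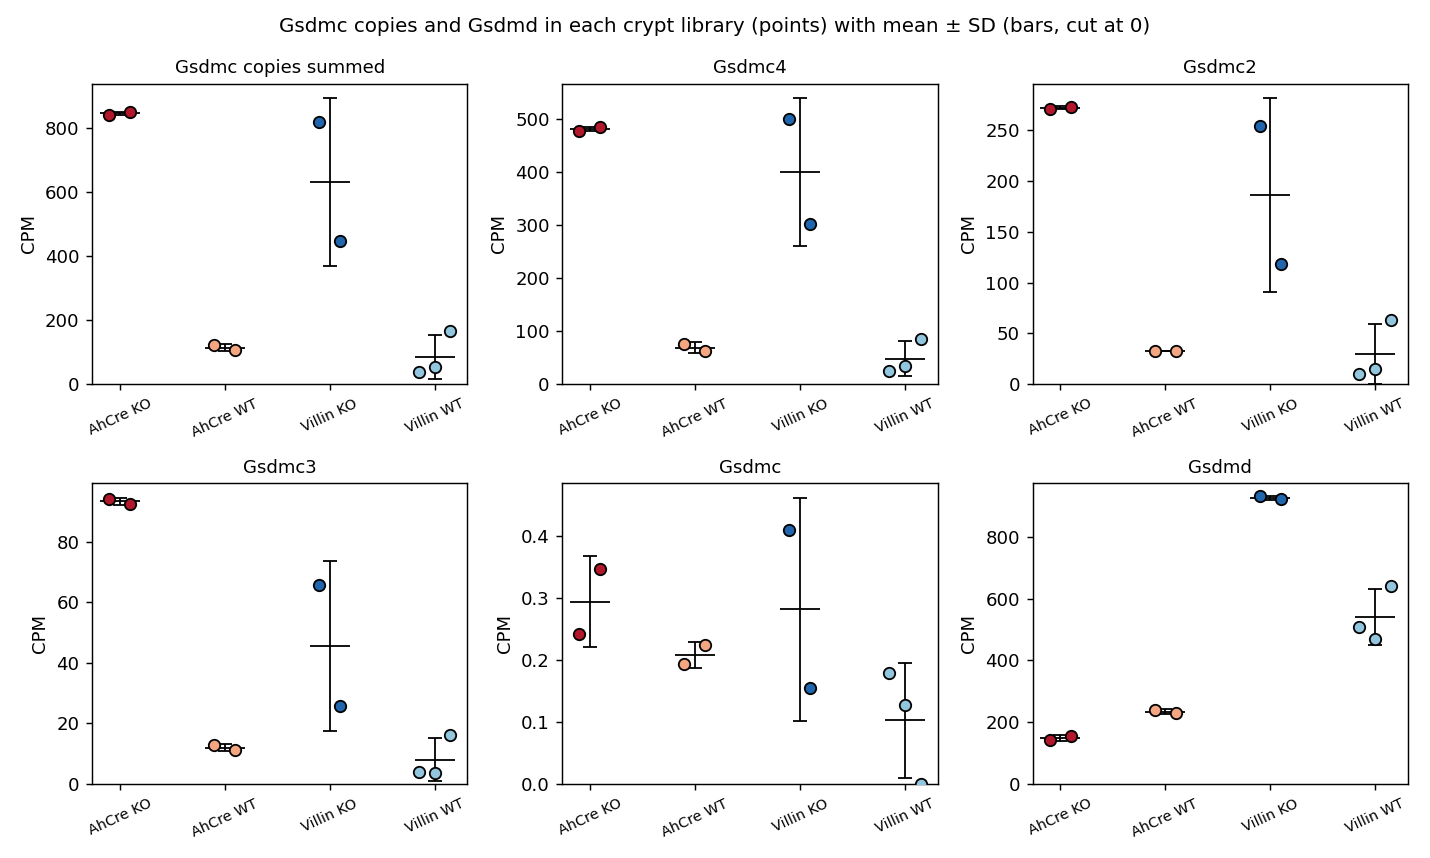
CPM (vertical axes, from 0, each panel with its own scale) of the summed Gsdmc copies, the 4 single copies and Gsdmd in AhCre KO, AhCre WT, Villin KO and Villin WT crypts; points are libraries and bars the mean ± SD. The summed copies sit at 843 and 849 CPM in AhCre KO and at 106 and 122 CPM in AhCre WT, the Gsdmc panel reaches only 0.410 CPM, and Gsdmd is below WT in AhCre KO and above WT in Villin KO.

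Of the 4 copies, Gsdmc2, Gsdmc3 and Gsdmc4 passed the filter on low counts and each rose on average and in Villin. Of all genes, 1.17% were called on average (0.972% higher) and 6.21% in Villin (3.33% higher). Gsdmc4 was the most abundant, with 477 and 483 CPM in AhCre KO, against 75.8 and 62.0 CPM in AhCre WT, and 499 and 302 CPM in Villin KO, against 24.3, 34.3 and 85.4 CPM in Villin WT. Its log2 fold change was 2.93 on average (SE 0.36, adjusted p = 0.00614) and 3.06 in Villin (adjusted p = 0.00774). The KO libraries were above the WT libraries without overlap in both drivers, with the 2 AhCre KO libraries close together and the 2 Villin KO libraries apart.

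Gsdmc2 was at 271 and 273 CPM in AhCre KO, against 32.9 and 32.4 CPM in AhCre WT. In Villin it was at 254 and 118 CPM in KO crypts, against 10.1, 14.6 and 63.2 CPM in WT crypts. Its log2 fold change was 2.87 on average (SE 0.47, adjusted p = 0.0117) and 2.67 in Villin (adjusted p = 0.0301). Gsdmc2 thus also separated KO from WT without overlap, with the narrowest gap between Villin KO 2 and Villin WT 3.

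Gsdmc3, the least abundant of the tested copies, was at 94.3 and 92.6 CPM in AhCre KO, against 12.7 and 11.3 CPM in AhCre WT. It was at 65.6 and 25.8 CPM in Villin KO, against 3.95, 3.72 and 16.2 CPM in Villin WT. Its log2 fold change was 2.75 on average (SE 0.43, adjusted p = 0.00959) and 2.54 in Villin (adjusted p = 0.0282). In AhCre alone the log2 fold changes were 2.80 for Gsdmc4, 3.06 for Gsdmc2 and 2.96 for Gsdmc3, with adjusted p of 0.250, 0.375 and 0.361. DESeq2 and limma-voom each called these 3 higher in AhCre, as they did 0.302% and 3.19% of all genes. Leaving out Villin KO 1 ended all 3 Villin calls, and leaving out either AhCre KO library, Villin WT 1 or Villin WT 2 left 1 of them, Gsdmc4. The Villin log2 fold change was lowest without Villin KO 1 and highest without Villin WT 3, from 2.04 to 3.91 for Gsdmc2, 1.74 to 3.57 for Gsdmc3 and 2.68 to 3.77 for Gsdmc4. Without either AhCre KO library it stayed at 2.67 for Gsdmc2 and 2.53 for Gsdmc3, with an adjusted p of 0.0547 to 0.0561. On average 0 were called when either AhCre WT library was left out, and 1 without Villin WT 1.

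Gsdmc, the copy whose sequence stands apart, was barely detected in any group. It had 3 and 4 counts in AhCre KO, against 3 and 3 in AhCre WT, and 2 and 1 in Villin KO, against 1, 1 and 0 in Villin WT. It was not tested, and the ratio of the scaled counts of KO over WT was 1.41 in AhCre (exact 95% interval 0.406 to 5.08) and 2.45 in Villin (0.281 to 29.3), intervals that cover counting error only. A change of Gsdmc was therefore not detectable at this depth.

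**Figure D2:**
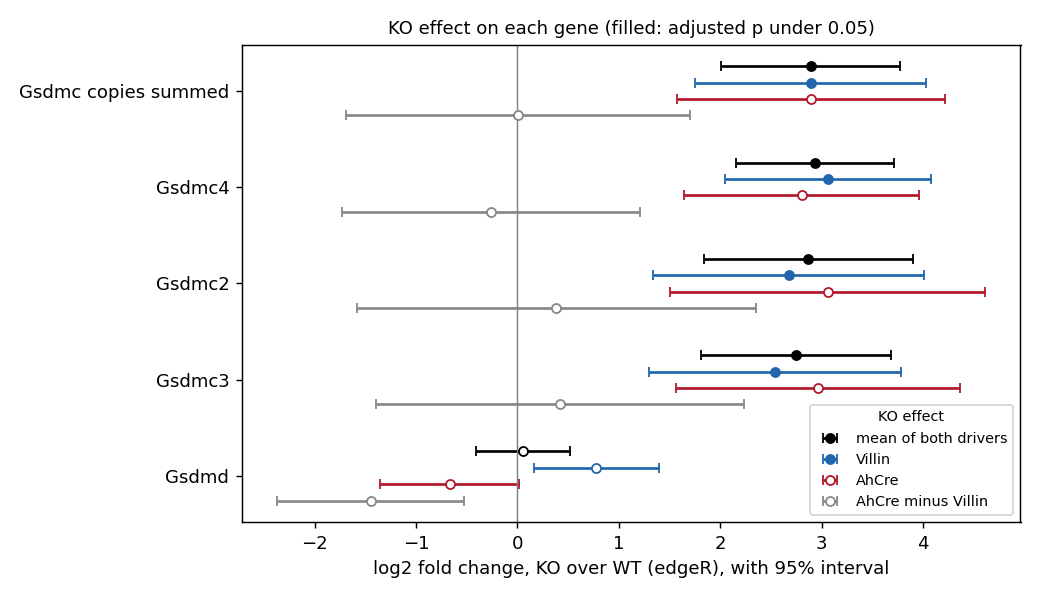
Log2 fold change of KO over WT (horizontal axis) with 95% intervals from edgeR for the summed Gsdmc copies, the 3 copies that were tested and Gsdmd, on average over both drivers, in Villin, in AhCre, and as the difference AhCre minus Villin; filled points have an adjusted p under 0.05. The Gsdmc points of both drivers lie between 2.54 and 3.06, whereas Gsdmd is at 0.78 in Villin and -0.67 in AhCre.

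Since the copies rose together, their make-up was compared within libraries, where the scaling has no part. Gsdmc4 gave 56.6% and 56.9% of the Gsdmc reads in AhCre KO, against 62.3% and 58.5% in AhCre WT, and 60.9% and 67.7% in Villin KO, against 63.1%, 65.0% and 51.8% in Villin WT. Its mean share was therefore lower in KO in AhCre and higher in KO in Villin. Gsdmc2 averaged 32.2% in AhCre KO and 28.9% in AhCre WT, and 28.8% in Villin KO and 30.8% in Villin WT. Gsdmc3 gave 11.2% and 10.9% in AhCre KO, against 10.5% and 10.6% in AhCre WT, and averaged 6.89% in Villin KO and 9.05% in Villin WT. Gsdmc stayed at or below 0.467% in every library. In AhCre the KO and WT libraries did not overlap in the share of any of the 4 copies, while in Villin they overlapped in all 4. With 2 libraries in each AhCre group, absence of overlap arises easily by chance. The 4 shares are parts of 1 whole, so they are not separate observations. For Gsdmc3 the closest AhCre libraries were KO 2 at 10.9% (95% Wilson interval 10.3% to 11.5%) and WT 2 at 10.6% (9.14% to 12.3%). The KO minus WT difference averaged over both drivers did not pass an exact two-sided permutation test of genotype within driver (adjusted p of 0.4 for Gsdmc, 0.933 for Gsdmc2, 0.7 for Gsdmc3 and 0.933 for Gsdmc4). In that average the opposite shifts of Gsdmc2, Gsdmc3 and Gsdmc4 in the drivers partly cancel. The Gsdmc share, which rests on a few counts, was lower in KO in both drivers (-0.15 points in AhCre and -0.19 points in Villin). With 60 arrangements the smallest possible p was 0.0167 before adjustment over the 4 copies, so a change in a single share could not have passed, and differences within a driver were not tested. The widest 95% Wilson interval for Gsdmc4, 56.4% to 69.3% in Villin WT 1 with 214 Gsdmc reads, shows the limit set by depth. The share of a copy also depends on how reads in identical stretches were assigned.

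**Figure D3:**
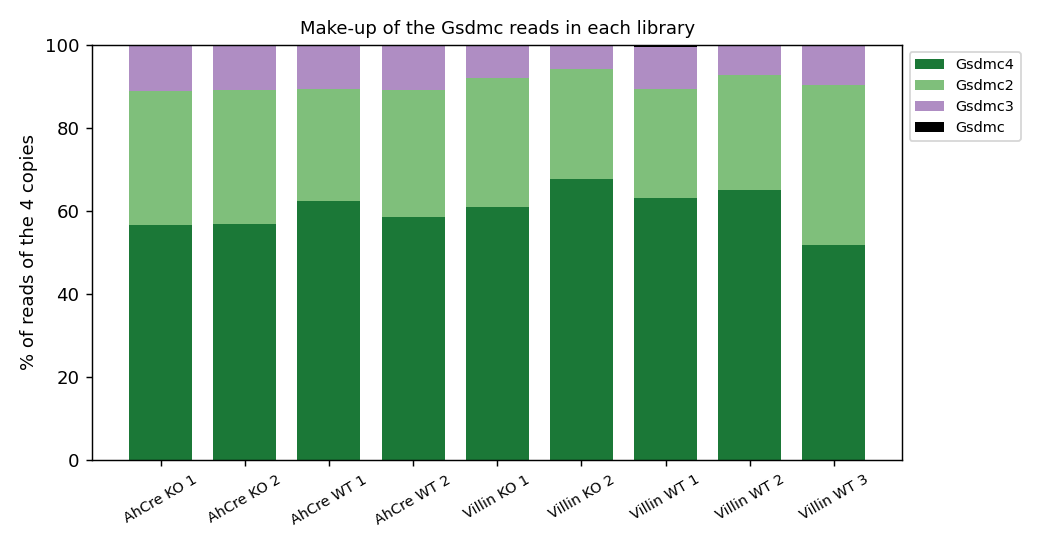
Share of each Gsdmc copy (vertical axis, percent of the reads of the 4 copies) in each library, with KO left of WT within each driver. Gsdmc4 holds 51.8% to 67.7% in every library and Gsdmc is too small to be seen.

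Per base of exon, the order of the copies was the same in all groups. In RPKM, which is CPM per kilobase of exon, Gsdmc4 averaged 230 ± 2.15 in AhCre KO and 33.0 ± 4.69 in AhCre WT, and 192 ± 66.7 in Villin KO and 23.0 ± 15.7 in Villin WT (SD, n = 2, 2, 2 and 3). Gsdmc2 averaged 118 RPKM in AhCre KO and 14.1 in AhCre WT, and 80.4 in Villin KO and 12.7 in Villin WT. Gsdmc3 averaged 40.1 RPKM in AhCre KO and 5.15 in AhCre WT, and 19.6 in Villin KO and 3.42 in Villin WT. In Villin WT the SDs of neighbouring copies in this order overlap, and Gsdmc2 there had an SD as large as its mean (12.7 RPKM).

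Gsdmd went opposite ways in the 2 drivers, and neither change passed adjustment in the fit to all libraries. In AhCre it was at 141 and 155 CPM in KO crypts, against 240 and 229 CPM in WT crypts (1739 and 1785 reads, against 3719 and 3067). In Villin it was at 932 and 922 CPM in KO crypts, against 507, 471 and 642 CPM in WT crypts (4550 and 5977 reads, against 2823, 3672 and 3333). Both KO libraries were thus below WT in AhCre and both were above WT in Villin, without overlap, as in 5.03% of all genes. The log2 fold change was -0.67 in AhCre (SE 0.32, unadjusted p = 0.0555, adjusted p = 1) and 0.78 in Villin (SE 0.28, unadjusted p = 0.0170, adjusted p = 0.110). Averaged over both drivers it was 0.056 (SE 0.21, 95% interval -0.40 to 0.52).

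The difference between the drivers in the KO effect on Gsdmd was -1.45 on the log2 scale (AhCre minus Villin, SE 0.42, 95% interval -2.37 to -0.52). It did not pass adjustment over all genes (adjusted p = 0.171), in a comparison in which 0.0738% of genes were called. DESeq2 called this difference (log2 -1.57, adjusted p = 0.0191; 1.75% of all genes were called lower) and the Villin change (log2 0.89, adjusted p = 0.0254; 6.75% higher). Limma-voom called the AhCre change (adjusted p = 0.0249; 2.42% of all genes lower), as did a fit of the AhCre libraries alone (log2 -0.65, adjusted p = 0.0146; 2.82% lower). Among WT crypts Gsdmd was lower in AhCre than in Villin (log2 difference -1.20, SE 0.30, adjusted p = 0.0342; 7.58% of genes were called in this comparison). It no longer passed when any one of 6 libraries was left out: Villin WT 1 (adjusted p = 0.0630), Villin WT 3 (0.0635), AhCre KO 2 (0.0799), AhCre KO 1 (0.0812), AhCre WT 1 (0.257) or AhCre WT 2 (0.403). The drivers differ in inducer, depth and number of genes detected as well as in Cre, which cannot be told apart here.

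The level of Gsdmd moved with that of absorptive enterocyte genes. Their 15 genes, among them transporters and brush border enzymes, summed to 10532 to 10881 CPM in AhCre KO, against 11696 to 13040 CPM in AhCre WT, and to 48909 to 70885 CPM in Villin KO, against 22491 to 35787 CPM in Villin WT. In Villin 9 of the 15 rose, where 3.33% of all genes did, and 0 fell. The list was written with earlier results of these data known, so its direction is no independent evidence. In AhCre edgeR called 0 (2 were lower at an unadjusted p under 0.05, 1 with DESeq2 and 4 with limma-voom, beside 1.72%, 0.154% and 2.42% of all genes). The list's median effect (log2) was -0.29 in AhCre, beside -0.0048 over all genes, and 1.34 in Villin, beside -0.18. Medians in AhCre and Villin had the same signs in the stromal (-0.61 and 1.16), myeloid and mast cell (-0.523 and 1.125) and lymphocyte and plasma cell lists (-0.043 and 0.59). They had the reverse signs in the goblet cell (0.30 and -0.25), Paneth cell (0.86 and -0.71) and crypt base stem cell lists (0.23 and -1.10). Slc2a5, the fructose transporter, rose in Villin (log2 2.94, adjusted p = 0.00482), as did Slc5a1, the sodium-glucose transporter (log2 2.44, adjusted p = 0.00774), and Slc2a2, the basolateral glucose transporter (log2 1.96, adjusted p = 0.00954). The Villin count of 9 was 4 without any one AhCre library, 1 without Villin KO 1 and 3 without Villin WT 1. The part of cell composition in the Gsdmd values was not tested. Myeloid cells also express Gsdmd. Myeloid and mast cell genes summed to 72.9 to 93.0 CPM in AhCre KO, against 155 to 165 CPM in AhCre WT, and to 149 to 847 CPM in Villin KO, against 15.3 to 244 CPM in Villin WT, with 0 of 11 called by edgeR in either driver (at an unadjusted p under 0.05, 1 was lower in AhCre and 3 were higher in Villin, where 10.7% of all genes were; DESeq2 called 0 in AhCre and 1 higher in Villin, and limma-voom 2 lower in AhCre and 0 in Villin, where it called 0.812% of all genes higher).

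**Figure D4:**
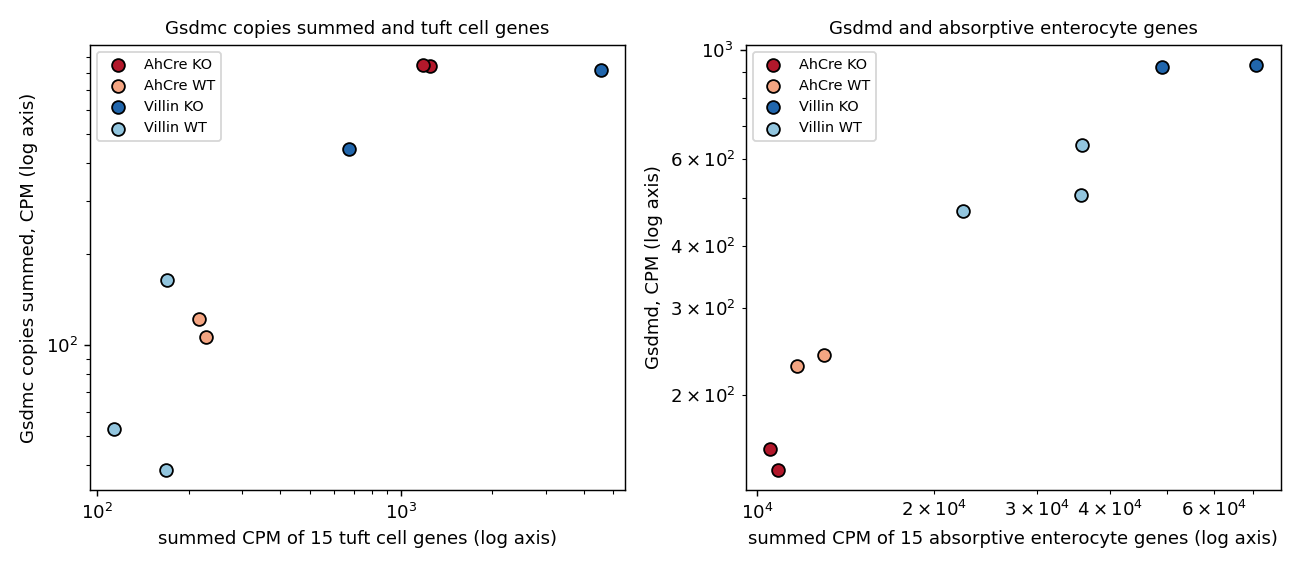
Summed Gsdmc copies against 15 summed tuft cell genes (left) and Gsdmd against 15 summed absorptive enterocyte genes (right), in CPM on log axes, 1 point per library. On the left all 4 KO libraries lie above and to the right of all 5 WT libraries, with Villin KO 1 far out at 4547 CPM of tuft cell genes; on the right AhCre KO is lowest and Villin KO highest on both axes.

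Set against Gsdmd, the Gsdmc copies gained weight in KO crypts of both drivers. There were 5.99 and 5.49 Gsdmc reads per Gsdmd read in AhCre KO, against 0.507 and 0.463 in AhCre WT. In Villin there were 0.878 and 0.484 Gsdmc reads per Gsdmd read in KO, against 0.0758, 0.112 and 0.257 in WT. Per base of exon, Gsdmd averaged 62.1 ± 4.23 RPKM in AhCre KO and 98.6 ± 3.40 RPKM in AhCre WT, and 390 ± 3.03 RPKM in Villin KO and 227 ± 37.9 RPKM in Villin WT. In the RPKM means Gsdmd therefore ranked above every Gsdmc copy in 3 of the groups and below Gsdmc4 and Gsdmc2 in AhCre KO. Over the 9 libraries Pearson's r of log2(CPM + 1) between the summed copies and Gsdmd was -0.15, given as a description since libraries share groups and drivers.

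Other gasdermins were not called in any comparison. Of 5 in the files, Gsdme, Gsdma and Gsdma2 were tested, and edgeR called 0 on average and in each driver, with 0 at an unadjusted p under 0.05 and 0 with DESeq2 or limma-voom. Over all genes, edgeR called 1.17% on average, 6.21% in Villin and 0.00615% in AhCre, so 0 of 3 is near these shares. On average 5.37% of all genes were higher and 8.49% lower at an unadjusted p under 0.05. DESeq2 called 2.04% higher and 0.658% lower on average, and limma-voom 1.43% and 0.209%. Gsdme, whose product is cut by caspase-3, was at 57.5 and 78.3 CPM in AhCre KO, against 67.9 and 59.2 CPM in AhCre WT, and at 28.5 and 79.9 CPM in Villin KO, against 59.3, 76.2 and 85.4 CPM in Villin WT. The KO and WT libraries of Gsdme overlapped in both drivers, and its log2 fold change was -0.17 on average (SE 0.29). Gsdma and Gsdma2, best known from skin, were low (mean over libraries 0.969 and 1.56 CPM), with log2 fold changes of -0.97 and -0.20. In AhCre, Gsdma was at 0.323 to 0.434 CPM in KO, against 0.895 to 1.03 CPM in WT. These were 9 counts against 28, a ratio of scaled counts of 0.389 (exact interval 0.161 to 0.847, counting error only). In Villin the Gsdma ratio was 0.680 (0.290 to 1.48). For Gsdma2 the ratios were 0.920 (0.627 to 1.35) in AhCre and 0.816 (0.357 to 1.76) in Villin. Gsdma3 and Pjvk, which is needed for hearing, did not pass the filter on low counts, and neither had a read in Villin.

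Among 7 tested proteases that cut gasdermins, edgeR called 0 on average and 0 in each driver for KO against WT. At an unadjusted p under 0.05, 1 was lower on average (8.49% of all genes were), and in Villin 1 was higher and 1 lower (15.4% of all genes were lower). DESeq2 called 1 lower on average (0.658% of all genes) and in Villin (4.01%), and limma-voom called 0 (0.209% of all genes lower on average, 0.0369% in Villin). Casp8, whose human counterpart cuts gasdermin C in cancer cells, was at 85.3 and 89.9 CPM in AhCre KO, against 90.5 and 72.4 CPM in AhCre WT, and at 197 and 242 CPM in Villin KO, against 132, 146 and 186 CPM in Villin WT, with a log2 fold change of 0.31 on average (adjusted p = 0.573). Casp4, which encodes mouse caspase-11 and cuts gasdermin D after sensing bacterial lipopolysaccharide, was at 11.8 and 18.5 CPM in AhCre KO, against 24.8 and 23.0 CPM in AhCre WT. In Villin, Casp4 was at 26.8 and 43.5 CPM in KO, against 86.1, 59.8 and 148 CPM in WT. The log2 fold change of Casp4 was -1.07 on average, which did not pass the edgeR test (adjusted p = 0.130). Like Gsdmd, Casp4 was lower in AhCre WT than in Villin WT (log2 -2.03, adjusted p = 0.0219).

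Among 10 inflammasome sensors and adaptors tested, edgeR called 0 on average and in each driver. At an unadjusted p under 0.05, 1 was lower on average, beside 8.49% of all genes. In Villin 1 was higher and 3 were lower at that threshold, beside 10.7% and 15.4% of all genes. DESeq2 called 1 lower in Villin, as it did 4.01% of all genes, and limma-voom called 0. Pycard, the ASC adaptor, had a log2 fold change of -0.64 on average (adjusted p = 0.414), and Nlrp6, a sensor of the gut epithelium, -0.31 (adjusted p = 0.654). Of 4 cargo and membrane rupture genes tested, 1 rose on average and in Villin, where 0.972% and 3.33% of all genes were called higher: Il33, an alarmin. It was at 97.1 and 173 CPM in Villin KO, against 14.4, 18.5 and 26.8 CPM in Villin WT (log2 2.77, adjusted p = 0.00482), a call that held with each library left out in turn. In AhCre, Il33 was at 6.47 and 6.85 CPM in KO, against 7.49 and 5.52 CPM in WT, so the libraries overlapped there. Il18, which leaves cells through gasdermin D pores, was at 25.1 and 39.6 CPM in AhCre KO, against 107 and 103 CPM in AhCre WT (log2 -1.7, adjusted p = 1), and at 256 and 475 CPM in Villin KO, against 278, 105 and 597 CPM in Villin WT. Neither change of Il18 passed the edgeR test.

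Genes that respond to type 2 cytokines in the gut epithelium rose in company with the Gsdmc copies. Of 7 tested, 5 rose on average, 4 in Villin and 1 in AhCre, and 0 fell. Of all genes, 0.972% were called higher on average and 3.33% in Villin, and 0.00615% were called in AhCre. The list's median effect (log2, both drivers) was 3.35, beside -0.095 over all genes. Earlier results of these data were known when this list was written, so its direction is no independent evidence. Pla2g4c, a cytosolic phospholipase, was at 539 and 444 CPM in AhCre KO, against 2.26 and 1.34 CPM in AhCre WT, and at 1568 and 529 CPM in Villin KO, against 2.52, 1.03 and 1.73 CPM in Villin WT. It rose in both drivers (log2 8.07 in AhCre, adjusted p = 0.000517, and 9.24 in Villin, adjusted p = 2.65e-05), and it was the single gene called in AhCre. Sprr2a3, a cornified envelope protein gene whose product is bactericidal in the gut, rose in Villin to 1794 and 282 CPM, against 82.5, 20.9 and 71.5 CPM in WT (log2 4.16, adjusted p = 0.00939), and was at 73.1 and 89.4 CPM in AhCre KO, against 13.0 and 14.9 CPM in AhCre WT; it has near-identical copies, so its value is uncertain. Duox2, a hydrogen peroxide-producing oxidase, and its maturation factor Duoxa2 rose on average (log2 3.03 and 3.38, adjusted p = 0.0157 and 0.0117). Retnlb, a goblet cell product, had 70 and 86 counts in AhCre KO, against 0 and 3 in AhCre WT, and 428 and 105 counts in Villin KO, against 4, 0 and 53 in Villin WT (adjusted p = 0.0446 on average). Leaving out a library moved the count on average to between 1 (either AhCre WT library, or Villin WT 1) and 6 (Villin WT 3) of 7, and to 3 without AhCre KO 1 or Villin WT 2; in Villin it was 1 without Villin WT 1 or Villin KO 1.

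The cytokines themselves were scarce. Il13 had 1 count in a single AhCre KO library and 0 in all others, and of 6 type 2 cytokine genes Il25 alone was tested. Il25, which tuft cells make, had 8 and 20 counts in AhCre KO, against 1 and 2 in AhCre WT, and 21 and 10 counts in Villin KO, against 0, 1 and 0 in Villin WT, and it rose on average (adjusted p = 0.0117) and in Villin (adjusted p = 0.0173). Averaged, Il25 passed only in the 3 fits that left out AhCre KO 1, Villin KO 2 or Villin WT 3, and in Villin it failed without Villin KO 1 or Villin WT 1. Of 9 genes of the IL-4 and IL-13 receptors and their signalling, edgeR called 0 on average (2 were higher and 1 lower at an unadjusted p under 0.05, and DESeq2 and limma-voom each called 1 higher, beside 5.37%, 2.04% and 1.43% of all genes higher). In Villin 1 of the 9 rose, as did 3.33% of all genes: Cish, a feedback inhibitor induced by STAT factors, at 33.0 and 20.4 CPM in KO, against 8.99, 7.44 and 10.6 CPM in WT (log2 1.57, adjusted p = 0.0260). That call was lost without any AhCre library, Villin WT 1 or Villin KO 1. Stat6 and Il4ra had log2 fold changes of 0.11 and 0.34 on average (adjusted p = 0.872 and 0.552).

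Tuft cell markers, from the rare epithelial cells that sense luminal parasites, moved with the Gsdmc copies between WT and KO. All 15 rose on average and in Villin, where 0.972% and 3.33% of all genes were called higher. Earlier results of these data were known when the cell type lists were written, so the direction of these 15 is no independent evidence. In AhCre edgeR called 0, with 15 higher at an unadjusted p under 0.05, as were 1.81% of all genes. There 10 were higher with DESeq2 (0.302% of all genes) and 15 with limma-voom (3.19% of all genes). Avil, an actin-bundling protein, and Alox5, a leukotriene-making enzyme, were among them (log2 3.71 and 3.85 on average, adjusted p = 0.00614 each). Their summed level was 1186 to 1246 CPM in AhCre KO, against 216 to 229 CPM in AhCre WT, and 675 to 4547 CPM in Villin KO, against 114 to 169 CPM in Villin WT. On average 0 of the 15 were called without either AhCre WT library, and 1 without Villin WT 1; in Villin 7 were called when Villin KO 1 was left out and 5 when Villin WT 1 was. Within Villin KO, library 1 was above library 2 in both measures, with 4547 and 675 CPM of tuft cell genes and 818 and 446 CPM of Gsdmc copies. Within AhCre KO the order was opposite, with 1246 and 1186 CPM of tuft cell genes and 843 and 849 CPM of Gsdmc copies. It was also opposite within AhCre WT (216 and 229 CPM, beside 122 and 106 CPM). In Villin WT the tuft cell genes were at 168, 114 and 169 CPM, beside 38.5, 52.7 and 165 CPM of Gsdmc copies. Of the goblet cell list, Clca1 alone rose in Villin (log2 1.90, adjusted p = 0.0390), and of the Paneth cell list Pnliprp2 rose on average (log2 2.79, adjusted p = 0.0104) and in Villin (log2 3.43, adjusted p = 0.0115). Among stem cell markers 3 of 8 fell in Villin: Slc12a2 (log2 -2.06, adjusted p = 0.0214), Axin2 (log2 -1.41, adjusted p = 0.0320) and Lgr5 (log2 -1.40, adjusted p = 0.0380). The collagen genes Col1a1 (log2 3.39, adjusted p = 0.00842) and Col3a1 (log2 2.78, adjusted p = 0.0180) of the stromal list rose in Villin. Without Villin KO 1, the Clca1 and Pnliprp2 calls in Villin and all 3 stem cell calls were lost and 1 stromal call was left; without Villin WT 1 the same calls were lost and 4 stromal genes were called. Without any one AhCre library Clca1 was not called and 1 stem cell gene was, and leaving out Villin WT 2 likewise left 1 stem cell call; 5 stem cell genes fell when Villin KO 2 was left out and 4 when Villin WT 3 was. Pnliprp2 was not called on average without Villin WT 1 or either of the AhCre WT libraries. Of all genes, 2.88% were called lower in Villin. Of 10 lymphocyte and plasma cell genes edgeR called 0 in Villin, with 1 higher at an unadjusted p under 0.05 and with DESeq2 and 0 with limma-voom. The part of any of these cell types in the rise of the Gsdmc copies was not tested.

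The genes most like the summed copies over the 9 libraries, by Pearson's r of log2(CPM + 1), were Fam221a (0.973), Ear-ps3 (0.958), Glce (0.957), Gsdmcl-ps (0.957) and Hspa1a (0.949). Ear-ps3 and Hspa1a were near the detection floor, with at most 2.05 and 2.35 CPM and with 0 counts in some Villin WT libraries. The genes most like Gsdmd were Mterf2 (0.992), Slc2a7 (0.991), Bbox1 (0.990), Clic5 (0.989) and Tango2 (0.987). Among them are Bbox1, the last enzyme of carnitine synthesis, and Slc2a7, a sugar transporter, with log2 fold changes of 1.80 and 1.5 in Villin. Since all 10 were chosen by likeness over the same libraries, their KO values follow from the choice and are a description. These correlations describe libraries that share group, driver and depth, and Gsdmcl-ps shares the locus of the copies.

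Gsdmcl-ps is one of 3 pseudogenes on the plus strand beside and between the copies, which were looked at after their values had been seen. Gsdmcl2, between Gsdmc3 and Gsdmc4, had 134 and 136 counts in AhCre KO, against 19 and 14 in AhCre WT, and 41 and 16 counts in Villin KO, against 5, 8 and 6 in Villin WT (log2 2.84 on average, adjusted p = 0.00724). Gsdmcl-ps, beyond Gsdmc4, had 41 and 43 counts in AhCre KO, against 7 and 4 in AhCre WT, and 17 and 9 counts in Villin KO, against 0, 1 and 1 in Villin WT, a ratio of 21.2 in Villin (exact 95% counting interval 5.31 to 184.5). Both rose on average without sharing a stretch of 50 bases with any copy. Gsdmcl1, between Gsdmc2 and Gsdmc3, had 1 count over both AhCre KO libraries, against 4 in AhCre WT, and 1 in Villin KO, against 3 in Villin WT. Adding the pseudogenes to the sum left the average log2 fold change at 2.89.

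**Figure D5:**
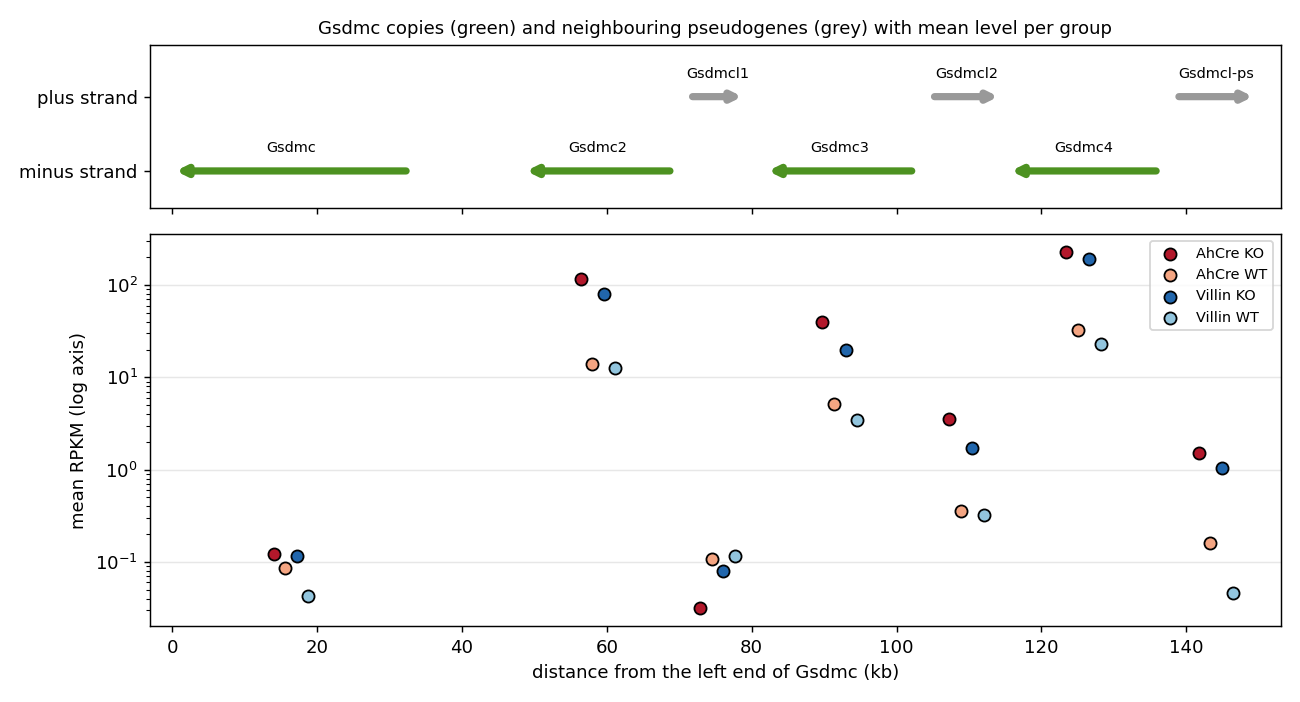
Map of the Gsdmc copies (green) and pseudogenes (grey), with arrows along the direction of transcription, over distance in kb from the left end of Gsdmc, and below it the mean RPKM of each gene in each group on a log axis. Means are higher in KO than in WT in both drivers for Gsdmc2, Gsdmc3, Gsdmcl2, Gsdmc4 and Gsdmcl-ps. Gsdmc and Gsdmcl1 rest on a few counts, with means of at most 0.123 RPKM. In both drivers these are higher in KO for Gsdmc and lower in KO for Gsdmcl1.

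None of the nearest tested protein-coding genes was called with the copies, by edgeR, in a KO comparison. Over all genes, edgeR called 6.21% for Villin KO against WT, 1.17% over both drivers and 0.00615% for AhCre alone. A lack of calls among so few neighbours is near these shares, so it does not show that the change was confined to the copies. On the far side of Gsdmcl-ps, Fam49b begins 16800 bases from the copies, and its log2 fold change was 0.037 on average (SE 0.25), with 0.33 in AhCre and -0.25 in Villin. Asap1 (0.26 on average) and Adcy8 (-0.62) on that side were not called in any KO comparison. Nor were Myc (-0.30), Fam84b (0.25) and Trib1 (0.057) on the other, which lie 1785594, 2922190 and 4118869 bases from the copies. Averaged over both drivers, the adjusted p of the neighbours of the copies was 0.456 to 0.971. Adcy8 was lower in Villin KO, just short of a call (log2 -1.93, SE 0.53, adjusted p = 0.0513), and was at 0.69 in AhCre. Around Gsdmd, the neighbours Zc3h3 (-0.02 on average), Top1mt (-0.41), Zfp41 (-0.58), Mroh6 (-0.65), Naprt (0.058) and Eef1d (-0.25) were not called in any KO comparison either.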

How the data were processed

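Crypt RNA (2 ng per library) was made into Smart-seq2 libraries, per the labels' protocols. The authors deposited raw read counts per gene for 9 libraries. The tools named in the submitters' processing notes are STAR 2.7, featureCounts and DESeq2 1.20, with mm10 and GRCm38 as builds. How each was set, for strand and for reads with several matches, was not given in the sources used here. Row names were all (100%) matched to GENCODE M21.

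Counts were fitted in R 4.3.3 with edgeR 4.0.16 (filterByExpr, 16250 genes; TMM; quasi-likelihood, 1 mean per group over all 9 libraries, 5 residual and 7.43 prior degrees of freedom), with Benjamini-Hochberg adjustment over all genes and calls under 0.05. In a second fit the 4 Gsdmc copies were replaced by their sum. The procedure was tested on simulated data. RPKM used M21 exon lengths. Coding sequences were aligned with MAFFT 7.526. DESeq2 1.42.0 and limma 3.58.1 (voom with sample weights), other filters and scalings, single-driver, additive and blocked fits, and left-out libraries were alternatives; the crossed block, the sum with pseudogenes and the recounts of list members were chosen after seeing the data.

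Members and lists were chosen with earlier results of these data known. Named are all members, Pcgf6, members of the gasdermin and type 2 pathway lists called in any contrast (otherwise the 2 most abundant), up to 3 called members of cell type lists, the 5 genes most correlated with the summed copies and with Gsdmd, and the 3 nearest tested genes on each side. The pseudogenes, Gsdma, Gsdma3, Pjvk, Stat6, Il4ra, Il13, Il18, Casp8 and Gzma were added after their values were seen.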

Additional observations from a re-analysis of the deposited data

Results flagged for a closer look

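For 5 named genes that are no gasdermins, the KO effect differed between the drivers by the interaction test of edgeR (adjusted p under 0.05), with the log2 effect in AhCre lower than in Villin. Of all 16250 genes tested, 12 (0.0738%) met this threshold, and with the replicate block 0 did. The difference, AhCre minus Villin, was -3.51 for Slc2a2 and -3.67 for Slc2a5 of the enterocyte list, -5.38 for Col1a1 of the stromal list, and -3.17 for Bbox1 and -2.69 for Slc2a7, both chosen for their likeness to Gsdmd over the same libraries. The values of Bbox1 and Slc2a7 follow from that choice. No gasdermin met this threshold in edgeR.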

How the results depend on the processing

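The rise of the summed Gsdmc copies on average kept its call under all 10 alternatives other than left-out libraries (log2 2.88 to 3.32, adjusted p up to 0.0248), and in Villin likewise (2.87 to 3.74, up to 0.0459). In AhCre it became a call with no low-count filter (2.94), DESeq2 (2.88), limma-voom (2.90) and AhCre alone (2.91). The difference of the drivers' effects was near 0 and changed sign: -0.13 with DESeq2 size factors, -0.125 with the DESeq2 test, -0.23 with limma-voom, and -0.84 with the replicate block, crossed or not. Gsdmd became a call with DESeq2 in Villin (0.89) and for the difference (-1.57), and in AhCre with limma-voom (-0.67) and alone (-0.65). For single copies the difference changed sign for Gsdmc2 (-0.0025 with limma-voom, -0.76 with either block) and Gsdmc3 (-0.45 with either block); the cause was not tested.

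With 1 library left out, the sum ranged from 2.66 to 3.34 on average, 2.41 to 3.79 in Villin and -0.90 to 0.49 for the difference, and Gsdmd among WT crypts from -1.25 to -1.06. The difference ranged from -0.85 to 1.02 for Gsdmc2, -0.61 to 1.23 for Gsdmc3 and -0.97 to 0.13 for Gsdmc4, Gsdmc2 among WT crypts from -0.24 to 1.40, and the KO minus WT share from -0.475 to 2.57 points for Gsdmc2 and -1.70 to 2.02 points for Gsdmc4. Where an arm kept 1 library, it was assumed to vary like the other groups.

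Whether the replicate numbers pair the samples could not be decided. Same-numbered KO and WT libraries had deviations correlated at -0.16 in AhCre, and at 0.075 and -0.20 in Villin. Where a group has 2 libraries, their deviations mirror each other, so crossing the numbers there only changes the sign. With the replicate block the sum was 3.32 on average (adjusted p = 0.00402), 3.74 in Villin (0.0139) and 2.90 in AhCre (0.142). The block was not run for the WT groups, where it could not be estimated together with the groups.

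Counts of genes called moved more: on average 190, against 538 without the filter, 438 with DESeq2 and 2 to 757 with 1 library left out; in Villin 1009, against 1591 without the filter, 1749 with DESeq2, 138 with limma-voom, 259 alone, 300 with the block and 73 to 1949; in AhCre 1, against 137 without the filter, 74 with DESeq2, 911 with limma-voom, 1046 alone and 1 to 64; for the difference 12, against 340 without the filter, 380 with DESeq2, 144 with limma-voom, 0 with the block and 0 to 415; among WT crypts 1231, against 2290 without the filter, 2278 with DESeq2, 3860 with limma-voom and 8 to 3030. With the numbers crossed in AhCre, the block gave 48 on average and 46 in Villin.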
